A study of Homo sapiens with 8 samples.

Results

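Splicing factor and hnRNP genes were followed in acRIP libraries, in which an antibody to the modified base N4-acetylcytidine (ac4C) pulls RNA fragments out of osteosarcoma cells with and without a NAT10 knockout. A gene belonged to the set if it is annotated as protein-coding and its symbol starts with HNRNP, SRSF, SF3A, SF3B, SNRP, RBM, PRPF or U2AF. Of 125 such genes in the annotation, 63 held at least 1 of the 31395 peaks, and together they held 127 peaks. In the whole series, 6765 protein-coding genes held 15336 peaks. By prefix, genes with a peak numbered 16 of 26 for HNRNP, 6 of 12 for SRSF, 3 of 3 for SF3A, 4 of 6 for SF3B, 10 of 12 for SNRP, 18 of 51 for RBM, 5 of 12 for PRPF and 1 of 3 for U2AF. A further 5 genes (HNRNPAB, PRPF39, RBM12, SNRPN and SRSF9) had peaks that also overlapped another protein-coding gene, and these peaks were assigned to neither. RBM24, with 11 and 0 counts in 143B sgNAT10 and NC and 0 and 4 in HOS sgNAT10 and NC, fell under the filter on low counts, which left 62 genes with gene sums that could be tested. The other genes of the prefixes had no assigned peak and were not measured here.

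Introns are removed from nuclear transcripts by the spliceosome, which is built from small nuclear ribonucleoproteins (snRNPs). The U1 snRNP binds the start of an intron, U2AF and the U2 snRNP with its SF3A and SF3B subunits bind its 3' end and branch point, and PRPF proteins assemble and remodel the machine. SR proteins and hnRNPs bind the transcript and promote or repress the use of nearby splice sites, and their own transcripts are known for alternative exons that lower the protein's level. NAT10 is the acetyltransferase that writes ac4C into RNA, and cytidines in 18S rRNA, transfer RNA and messenger RNA are its known substrates.

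Per the labels, the human lines were 143B and HOS, both osteosarcoma, each as sgNAT10 (the NAT10 knockout) and as NC (the control), and 143B is known to descend from HOS. The guide sequence, the edited site, the number of clones and what NC received are not stated in the labels, so clonal differences between knockout and control cells cannot be told apart from the knockout. Each of the 4 combinations had 1 acRIP library, in which fragmented poly(A)-selected RNA was recovered with the anti-ac4C antibody. The values are read counts per peak, summed over the peaks of a gene. Input libraries were not used here, so a difference in these counts mixes the amount of a transcript with its enrichment by the antibody, and fewer cells expressing a gene cannot be told apart from less RNA per cell.

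Totals over all peaks lay between 20107718 and 24785306 counts, and 40376 to 56094 of them fell in the splicing genes. Their share of a library was 0.195% in 143B sgNAT10 and 0.201% in 143B NC, and 0.239% in HOS sgNAT10 and 0.226% in HOS NC. Their share of counts in protein-coding genes was 2.01% and 1.86% in 143B sgNAT10 and NC, and 1.52% and 2.16% in HOS sgNAT10 and NC. Shares of counts in the rRNA repeat block were 34.0% in 143B sgNAT10 and 42.6% in 143B NC, and 42.5% in HOS sgNAT10 and 60.3% in HOS NC. The library with the label sgNAT10 in 143B was unlike the rest: over the 127 splicing gene peaks its Spearman correlation with them was 0.706 to 0.790, against 0.954 to 0.973 among the other 3 libraries. These correlations share the peak set and describe only these libraries. Every 143B value below rests on that library, and the HOS counts are those without it. The scaling of the HOS shifts does depend on it, since the factors were computed over all 4 libraries. Factors from the HOS libraries alone moved every HOS shift by -0.28, and the HOS median given below to -1.12. NAT10 itself had 1 peak, with 130 counts in 143B sgNAT10 and 65 in 143B NC, and 63 in HOS sgNAT10 and 180 in HOS NC. The edited site is unknown and a guide-induced edit need not remove the transcript, so this peak does not check the labels, and in 143B it is higher in the library labelled sgNAT10. Below, 143B sgNAT10 means the library that carries this label. Of 11 mesenchymal markers, 6 had peaks, while COL1A1, COL1A2, THY1, CDH11 and S100A4 had none. Summed counts were 10838 in 143B sgNAT10, 11562 in 143B NC, 24390 in HOS sgNAT10 and 20751 in HOS NC. VIM alone held 6923, 9700, 21284 and 16614 of these, in the same order. VIM, RUNX2 and NT5E had more counts in HOS sgNAT10 than in HOS NC, and SPARC, CD44 and LGALS1 had fewer. These marker counts are unscaled. The scaling factors used below are 1.09 for HOS sgNAT10 and 0.731 for HOS NC, so a count higher in HOS sgNAT10 need not be higher after scaling. Of 8 markers of other cell types, 2 had peaks, with sums of 29 in 143B sgNAT10, 36 in 143B NC, 817 in HOS sgNAT10 and 7 in HOS NC. Nearly all of the 817 counts, 812, lay in CDH1, an epithelial adhesion gene, and the part of this difference in the HOS results was not tested.

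In HOS, most splicing genes were lower in the sgNAT10 library, and in 143B the same genes were spread to both sides of 0. A shift is the difference in log2 CPM (counts divided by library size, scaled with TMM factors, prior count of 1), sgNAT10 minus NC. The median shift of the 62 genes was 0.33 in 143B, against 0.19 over all 8157 gene sums and 0.15 over the 6313 protein-coding ones. In HOS it was -0.85, against 0.05 over all gene sums and -0.11 over protein-coding ones. In HOS 55 of 62 splicing genes had a shift below 0, where 48.1% of all gene sums and 54.5% of protein-coding ones did. This number depends on the scaling. Library totals alone gave 42 of 62 below 0, with a median of 0.61 over all gene sums. TMM factors from outside the rRNA block gave 60 of 62, with a median of -0.22 over all gene sums. The pooled level of the splicing genes in HOS changed direction with the scaling. With the TMM factors as reported, its ratio of sgNAT10 to NC was 0.705. By library totals alone the pooled share was higher in HOS sgNAT10, at 0.239% against 0.226% in HOS NC. In 143B 39 of 62 lay above 0, where 56.8% and 55.1% did. Genes with a mean count of at least 100 gave a similar order: 49 splicing genes had medians of 0.12 in 143B and -0.85 in HOS, and 2802 protein-coding genes of that size had -0.18 and -0.22. Of these, 29 of 49 splicing genes lay above 0 in 143B, against 1265 of 2802 protein-coding ones. Below 0 in HOS were 44 of 49, against 1682 of 2802.

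A difference of at least 2-fold was common in both lines and ran in different directions. In 143B 13 of 62 genes were at least 2-fold higher in sgNAT10 and 10 were at least 2-fold lower, where 21.3% and 17.5% of all gene sums and 20.6% and 19.3% of protein-coding ones were. In HOS 25 of 62 were at least 2-fold lower and 1, RBM20, was at least 2-fold higher, where 12.7% and 17.1% of all gene sums and 15.1% and 13.3% of protein-coding ones were. The 143B counts lie near those shares, and the HOS count of lower genes is above its share with these factors. Those shares come from genes with fewer counts. At a mean count of at least 100, 8 of 49 splicing genes were at least 2-fold lower in 143B, against 777 of 2802 protein-coding ones. At least 2-fold higher were 6, against 315. Among genes of that size the share of lower ones in 143B was thus smaller in splicing genes. In HOS 22 of the 49 were at least 2-fold lower, against 481, and 0 higher, against 314. Counts over all 62 genes depend on the scaling: genes at least 2-fold lower in HOS numbered 4 with library totals alone and 38 with TMM factors from outside the rRNA block. With library totals alone, 22 genes were at least 2-fold higher and 6 at least 2-fold lower in 143B. Shares of all gene sums past 2-fold under these other scalings are not given, so these counts have no background beside them. The median of all gene sums with library totals alone was 0.53 in 143B and 0.61 in HOS. With factors from outside the rRNA block it was -0.22 in HOS. A positive shift in 143B together with a negative one in HOS was seen for 37 of 62 genes, against 26.8% of all gene sums and 30.8% of protein-coding ones. A negative shift in both lines was seen for 18 of 62, against 21.3% and 23.6%. The remaining genes were 2 above 0 in both lines, against 30.0% and 24.2%, and 5 below 0 in 143B and above 0 in HOS, against 21.9% and 21.3%. The lists of genes past 2-fold in both lines depend on the scaling as well. Library totals alone added 0.34 to every 143B shift and 0.58 to every HOS shift. With the factors as reported, SF3B4, RBM14 and RBM4 were at least 2-fold lower in both lines, which 1.57% of all gene sums and 1.93% of protein-coding ones were. In the other direction, 6 genes were at least 2-fold higher in 143B and at least 2-fold lower in HOS, against 2.92% of all gene sums and 3.55% of protein-coding ones: HNRNPF, SRSF7, SRSF10, SF3B6, SNRPA1 and RBM22, of which HNRNPF, SRSF10, SF3B6 and RBM22 were named after their values were seen.

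**Figure D1:**
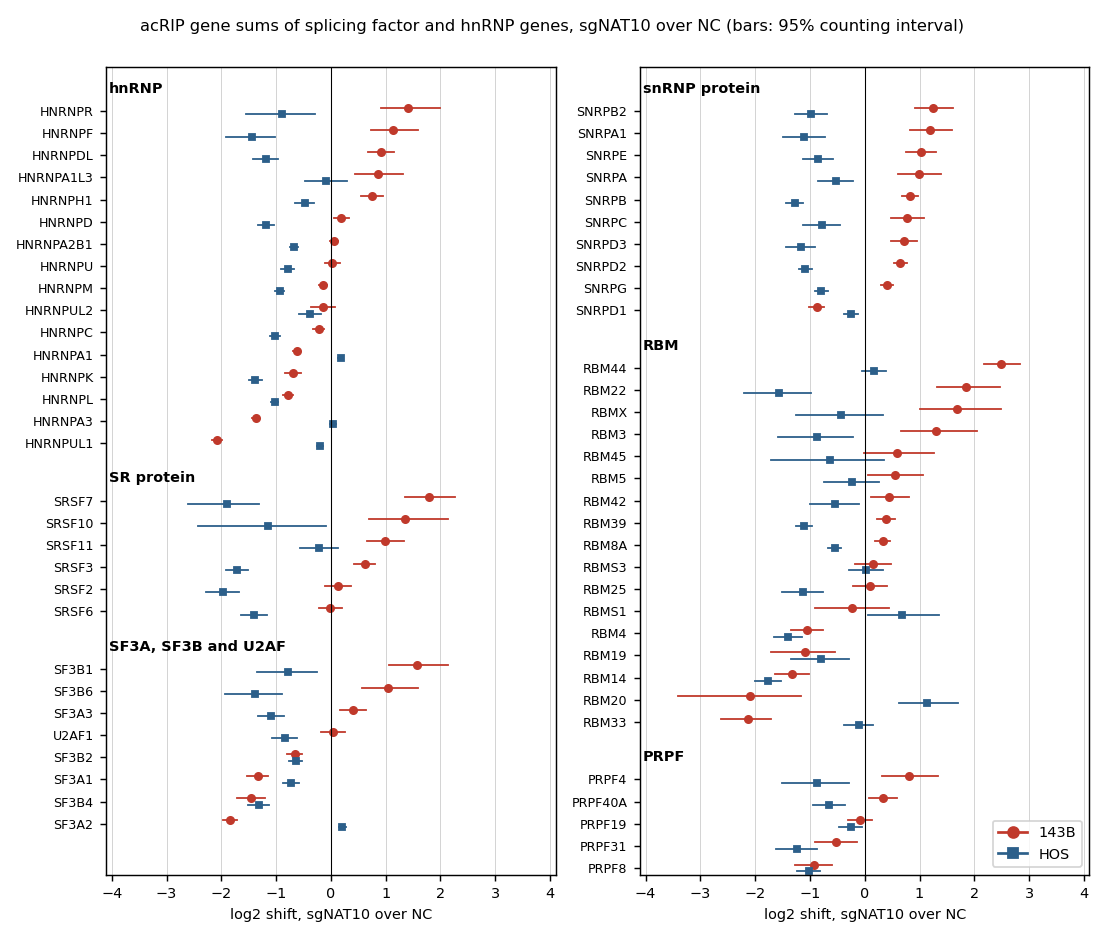
Shift of the gene sum (log2, sgNAT10 over NC, horizontal axis) of the 62 tested splicing factor and hnRNP genes, in 6 families, with circles for 143B, squares for HOS and bars for the 95% interval of counting error. In HOS 55 of the 62 squares lie below 0, and in 143B 39 of the 62 circles lie above 0.

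No splicing gene passed the test across lines. The edgeR quasi-likelihood test took genotype as the tested term and cell line as a block, which leaves 1 residual degree of freedom. With Benjamini-Hochberg adjustment it called 0 of 62 splicing genes and 0 of 8157 gene sums (0.0%) at an adjusted p of at most 0.05. At an unadjusted p under 0.05 it picked 0 of 62 splicing genes, against 314 of all gene sums (3.85%). The DESeq2 Wald test and limma-trend also called 0 gene sums, with 229 and 325 at an unadjusted p under 0.05, of which 1 and 0 were splicing genes. On peaks, 0 of 123 in these genes and 0 of all 24467 (0.0%) were called. A single splicing gene peak had an unadjusted p under 0.05, against 3.86% of all peaks: the last RBMS3 peak (edgeR adjusted p = 0.981), whose counts were 35 in 143B sgNAT10 and 4 in 143B NC, and 13 in HOS sgNAT10 and 4 in HOS NC. This gene was named after its values were seen. On simulated counts of this design the test recovered 0% of gene sums changed 4-fold and 1.52% of those changed 8-fold. Within a line each group had 1 library and no test, and the intervals given with shifts are 95% intervals of counting error alone, taking reads as independent molecules.

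**Figure D2:**
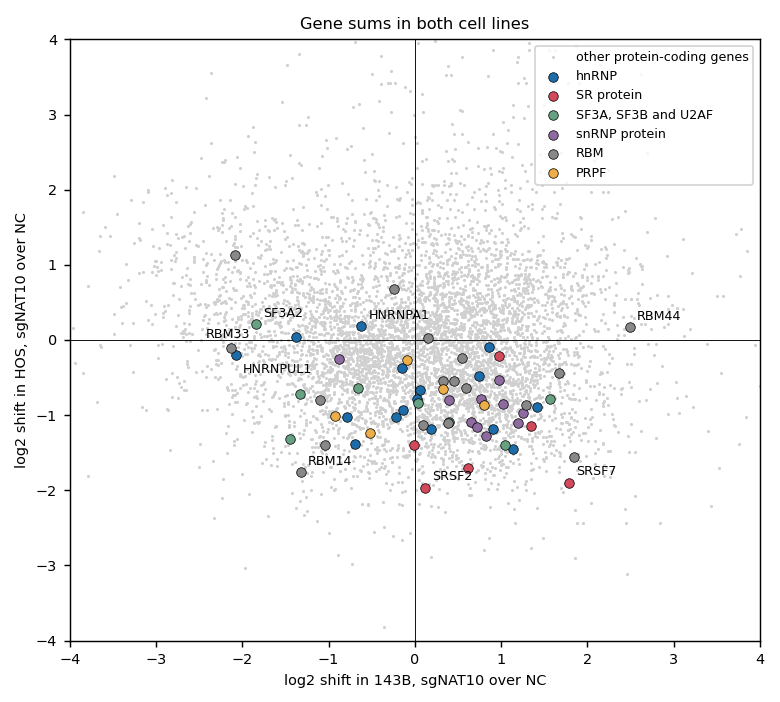
Shift of gene sums (log2, sgNAT10 over NC) in 143B (horizontal axis) and HOS (vertical axis), with splicing genes as coloured circles by family and 6251 other protein-coding genes as grey dots, of which 44 lie beyond the axes. Of the 62 coloured circles, 37 lie at the lower right, above 0 in 143B and below 0 in HOS.

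The SR proteins, which carry domains rich in arginine and serine and bind exonic enhancers, had the lowest family median in HOS. All 6 measured members were below 0 there and 5 of them were at least 2-fold lower, with a median of -1.55. In 143B 5 of 6 were above 0 and the median was 0.80. Summed over the family, levels were 77.5 CPM in 143B sgNAT10 and 54.4 in 143B NC, and 35.7 in HOS sgNAT10 and 101 in HOS NC, ratios of 1.42 and 0.353. The HOS median stayed below 0 under each scaling tried, and was nearest to it with library totals alone, at -0.97, where 5 of the 6 remained below 0.

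SRSF7, which also works as an adaptor for mRNA export, differed most between the lines. Its single peak had 251 counts in 143B sgNAT10 and 51 in 143B NC, against 28 in HOS sgNAT10 and 84 in HOS NC. The shift was 1.78 in 143B (1.36 to 2.27) and -1.90 in HOS (-2.61 to -1.30). Counts in the library labelled sgNAT10 were the higher ones in 143B and the lower ones in HOS. SRSF3, the smallest SR protein, had 718 counts in 143B sgNAT10 and 331 in 143B NC, and 285 in HOS sgNAT10 and 731 in HOS NC, with shifts of 0.62 (0.43 to 0.81) and -1.71 (-1.91 to -1.51). SRSF2, a component of nuclear speckles, had 383 and 249 counts in 143B sgNAT10 and NC and 124 and 382 in HOS sgNAT10 and NC. Its HOS shift of -1.97 (-2.28 to -1.68) was the lowest of all 62 genes, while its 143B shift of 0.12 (-0.11 to 0.36) lay within counting error of 0. SRSF11, which associates with U2AF, had 283 and 101 counts in 143B sgNAT10 and NC, and 144 and 131 in HOS sgNAT10 and NC. Its shift was 0.98 in 143B, and in HOS -0.21, with an interval that held 0 (-0.57 to 0.14) and a value of 0.36 with library totals alone.

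Proteins of the snRNPs had shifts of a common sign within each line, with 1 exception. In 143B 9 of 10 were above 0 (median 0.80), where 55.1% of protein-coding gene sums were. In HOS 10 of 10 were below 0 (median -0.92), where 54.5% were. The only peak of SNRPA, SNRPA1, SNRPB and SNRPC, and a peak each of SNRPD2 and SNRPG, lay within 500 bp of the gene's finish. Such peaks of other protein-coding genes (mean count at least 50) had medians of 0.81 in 143B, with 85.4% above 0, and -0.68 in HOS. The part of peak position in this family was not tested. SNRPD1, a subunit of the Sm ring, was the exception in 143B, with 766 counts in sgNAT10 and 999 in NC and a shift of -0.88, and was named after its values were seen. Family sums were 276 CPM in 143B sgNAT10 and 205 in 143B NC, and 193 in HOS sgNAT10 and 351 in HOS NC, ratios of 1.35 and 0.549. Scaling by library totals gave a HOS median of -0.34, with 8 of 10 below 0.

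SNRPD2, another Sm ring subunit and the snRNP gene with the most counts, had 1854 counts in 143B sgNAT10 and 837 in 143B NC, and 977 in HOS sgNAT10 and 1626 in HOS NC. The shifts were 0.65 (0.53 to 0.77) and -1.09 (-1.20 to -0.97). SNRPB2 and SNRPA1 bind each other on the U2 RNA, and both showed the same pattern. SNRPB2 had 308 and 91 counts in 143B sgNAT10 and NC and 162 and 251 in HOS sgNAT10 and NC, with shifts of 1.25 (0.92 to 1.61) and -0.98 (-1.28 to -0.69). SNRPA1 had 254 and 78 counts in 143B sgNAT10 and NC and 94 and 159 in HOS sgNAT10 and NC, with shifts of 1.20 (0.83 to 1.59) and -1.10 (-1.49 to -0.73). SNRPA, the U1 protein that binds a stem loop of the U1 RNA, had 216 and 77 counts in 143B sgNAT10 and NC and 152 and 172 in HOS sgNAT10 and NC. Its shifts were 0.98 (0.61 to 1.38) and -0.53 (-0.85 to -0.21), and the HOS value turned to 0.05 with library totals alone.

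The factors that recognise the 3' splice site and branch point (SF3A, SF3B and U2AF) were split in 143B and mostly lower in HOS. In 143B 4 of 8 were above 0, with a median of -0.31 that turned to 0.03 with library totals alone. In HOS 7 of 8 were below 0, with a median of -0.81. SF3A2, a zinc finger subunit of SF3A, had the largest counts of the group and the opposite order of lines from the snRNP genes. Its 6 peaks held 775 counts in 143B sgNAT10 and 1965 in 143B NC, and 4203 in HOS sgNAT10 and 2847 in HOS NC. The shift was -1.84 in 143B (-1.96 to -1.72) and 0.21 in HOS (0.14 to 0.28), where TMM factors computed outside the rRNA block gave -0.07. SF3B4, which contacts RNA near the branch point, was lower in the library labelled sgNAT10 in both lines, with 194 and 377 counts in 143B sgNAT10 and NC, and 318 and 623 in HOS sgNAT10 and NC. Its shifts were -1.45 (-1.71 to -1.20) and -1.32 (-1.52 to -1.12), with an edgeR adjusted p of 0.985. SF3B2, the partner of SF3B4, had 744 and 835 counts in 143B sgNAT10 and NC and 980 and 1199 in HOS sgNAT10 and NC, and shifts of -0.66 and -0.64. U2AF1, which reads the AG at the intron's end, had 397 and 274 counts in 143B sgNAT10 and NC and 286 and 402 in HOS sgNAT10 and NC. Its 143B shift of 0.04 (-0.19 to 0.26) held 0 within counting error and was -0.05 with DESeq2-type size factors, and its HOS shift was -0.84 (-1.07 to -0.62).

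The hnRNPs had the largest family sum in each library, and their shifts ran from -2.08 to 1.41 in 143B. In 143B 8 of 16 were above 0 with a median of -0.06, which turned positive with upper quartile factors (0.15), with library totals alone (0.29) and with TMM outside the rRNA block (0.02). In HOS 14 of 16 were below 0 with a median of -0.84. Family sums were 890 CPM in 143B sgNAT10 and 1375 in 143B NC, and 1464 in HOS sgNAT10 and 1961 in HOS NC, ratios of 0.647 and 0.746. The HOS ratio depends on the scaling. Unscaled, the family held 33819 of 21132328 counts in HOS sgNAT10 and 35522 of 24785306 in HOS NC. By library totals alone its share was thus higher in HOS sgNAT10, while the HOS median was -0.27, with 10 of 16 below 0.

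HNRNPUL1, an hnRNP U-like protein with a role in the DNA damage response, and HNRNPA3, a relative of hnRNP A1 that binds mRNA, were lower in 143B sgNAT10 and nearly level in HOS. HNRNPUL1 had 1323 counts in 143B sgNAT10 and 3957 in 143B NC, and 4779 in HOS sgNAT10 and 4288 in HOS NC. The shifts were -2.08 (-2.17 to -1.99) and -0.19 (-0.25 to -0.13). HNRNPA3 had 3702 and 6803 counts in 143B sgNAT10 and NC, and 6581 and 5004 in HOS sgNAT10 and NC, with shifts of -1.38 (-1.43 to -1.32) and 0.04 (-0.01 to 0.10). The HOS values change sign with the scaling: HNRNPUL1 was 0.39 when scaled by totals, and HNRNPA3 was -0.11 with DESeq2-type size factors.

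HNRNPA1, an abundant repressor of exon inclusion, had the most counts of all: 4118 in 143B sgNAT10 and 4491 in 143B NC, and 9032 in HOS sgNAT10 and 6243 in HOS NC. Its shifts were -0.62 (-0.68 to -0.56) and 0.18 (0.13 to 0.23), and the HOS value was -0.10 with TMM factors from outside the rRNA block. Reads of this gene could be shared with its many copies: 75 pseudogenes of HNRNPA1 are annotated, and how reads with several matches were handled is not given in the sources used here. HNRNPA1L3, an HNRNPA1-like gene annotated as protein-coding, had 165 and 64 counts in 143B sgNAT10 and NC and 129 and 108 in HOS sgNAT10 and NC, and is uncertain for the same reason. HNRNPL, which binds CA repeats, was lower in both libraries labelled sgNAT10, with 1777 and 2165 counts in 143B sgNAT10 and NC and 2847 and 4541 in HOS sgNAT10 and NC. Its shifts were -0.78 (-0.87 to -0.69) and -1.02 (-1.09 to -0.96). HNRNPM, a regulator of alternative exons, had shifts of -0.14 and -0.93, and HNRNPA2B1, a relative of hnRNP A1, had 0.06 and -0.67. Both 143B values change sign under other scalings, to 0.20 for HNRNPM with library totals alone and to -0.03 for HNRNPA2B1 with DESeq2-type size factors.

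RNA-binding motif (RBM) genes are named for a shared RNA recognition motif and do not form a single complex, and they had the widest range of shifts. In 143B 11 of 17 were above 0 with a median of 0.33, and shifts ran from -2.13 to 2.49. In HOS 13 of 17 were below 0 with a median of -0.55, which turned to 0.03 with library totals alone. RBM44, a protein of germ cell bridges in mouse, had the highest shift of all 62 genes in 143B. It had 713 counts in 143B sgNAT10 and 89 in 143B NC, and 414 in HOS sgNAT10 and 288 in HOS NC. The shifts were 2.49 (2.18 to 2.84) and 0.17 (-0.05 to 0.39). RBM33 had the lowest shift in 143B, with 54 counts in 143B sgNAT10 and 170 in 143B NC, and 255 in HOS sgNAT10 and 216 in HOS NC. Its shifts were -2.13 (-2.62 to -1.70) and -0.11 (-0.38 to 0.16), and the HOS value was 0.47 with library totals alone.

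RBM14, a paraspeckle protein, and RBM4, a regulator of alternative splicing encoded next to it, were lower in both libraries labelled sgNAT10. RBM14 had 139 and 247 counts in 143B sgNAT10 and NC and 217 and 578 in HOS sgNAT10 and NC, with shifts of -1.32 (-1.64 to -1.02) and -1.76 (-2.00 to -1.54). RBM4 had 158 and 232 counts in 143B sgNAT10 and NC and 186 and 386 in HOS sgNAT10 and NC, with shifts of -1.05 (-1.35 to -0.75) and -1.40 (-1.66 to -1.15). Their peaks also lie in an annotated readthrough gene that joins the pair, so they may not be separate transcripts. The edgeR adjusted p was 0.985 for both. RBM8A, the Y14 subunit of the exon junction complex, had the most counts of the family, with 1132 and 639 in 143B sgNAT10 and NC and 1106 and 1265 in HOS sgNAT10 and NC. Its shifts were 0.33 (0.19 to 0.47) and -0.54 (-0.66 to -0.43), and the HOS value was 0.04 with library totals alone. RBM39, a splicing factor related to U2AF2, had 860 and 467 counts in 143B sgNAT10 and NC and 615 and 1037 in HOS sgNAT10 and NC, with shifts of 0.38 (0.22 to 0.55) and -1.10 (-1.25 to -0.96). RBM20, the titin splicing factor of heart muscle and the 1 gene at least 2-fold higher in HOS, had 10 and 33 counts in 143B sgNAT10 and NC and 119 and 42 in HOS sgNAT10 and NC. It was named after its values were seen.

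The PRPF proteins, which include PRPF8 at the centre of the active spliceosome, gave 2 of 5 shifts above 0 in 143B (median -0.09, and 0.12 with upper quartile factors) and 5 of 5 below 0 in HOS (median -0.87). PRPF19, a ubiquitin ligase of the activated spliceosome and the family's largest gene sum, had 396 and 298 counts in 143B sgNAT10 and NC and 377 and 354 in HOS sgNAT10 and NC. Its shifts were small, -0.09 (-0.31 to 0.13) and -0.26 (-0.47 to -0.05), and both were above 0 with library totals alone (0.26 and 0.32).

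**Figure D3:**
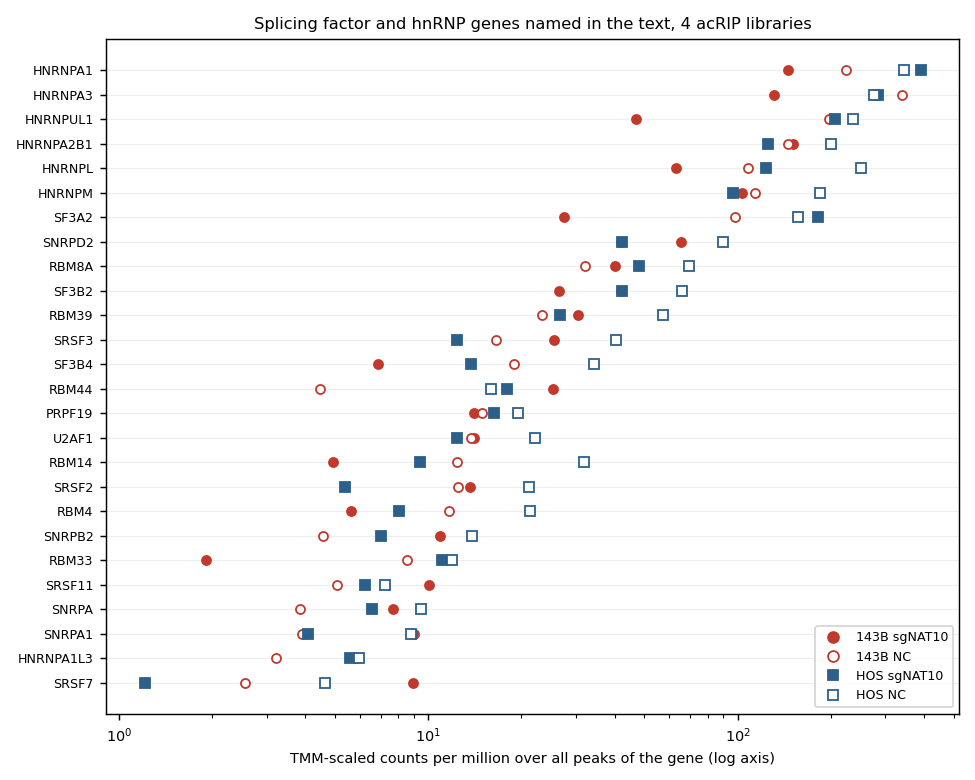
Gene sums in TMM-scaled CPM (log axis) for the 26 splicing genes chosen by the rule for named genes, in each of the 4 acRIP libraries, with filled symbols for sgNAT10, open symbols for NC, circles for 143B and squares for HOS. For SRSF7 the filled circle is the highest symbol and the filled square the lowest, and for HNRNPUL1 the filled circle alone lies apart from the other 3; genes are not compared with each other, since peaks differ in length.

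Splicing and RNA-binding genes outside these prefixes had a like pair of medians. Of 118 listed symbols (helicases, LSM proteins, SR-related proteins, kinases and RNA-binding regulators), 117 were in the annotation and 68 had gene sums that were tested. Their median shift was 0.13 in 143B and -0.81 in HOS. In 143B 41 of 68 were above 0, and in HOS 61 of 68 were below 0. At least 2-fold lower in HOS were 25 of 68 and at least 2-fold higher 0 of 68, against the 12.7% and 17.1% of all gene sums given above. The edgeR test called 0 of 68, and 0 of them had an unadjusted p under 0.05. EFTUD2, the GTPase of the U5 snRNP, was lowest in HOS (-2.28), and SART1, a component of the tri-snRNP, had 2084 counts in 143B sgNAT10 and 6175 in 143B NC. Both were named after their values were seen.

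Where along the gene a peak lay went with its shift in 143B. The gene's strand was known for 57 of the 63 genes, and each peak was classed as lying within 500 bp of the gene's start, within 500 bp of its finish, or between them. Exons and introns were not assigned, since the gene table used here holds gene spans only. Of 107 splicing gene peaks with a mean count of at least 50, 3 lay at the start, 70 were internal and 19 lay at the finish, while 3 end peaks and 12 internal peaks had no strand. In 143B 51.4% of the 107 peaks were above 0, against 35.3% of 6254 peaks in other protein-coding genes. In HOS 12.1% were above 0, against 43.6%.

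Peaks at the finish were higher in 143B sgNAT10 in 18 of 19 cases, with a median shift of 0.77. In 868 finish peaks of other genes, 85.4% were above 0 and the median was 0.81. In HOS 0 of 19 finish peaks of splicing genes were above 0 and the median was -0.81, against 15.2% and -0.68 in other genes. Finish peaks of splicing genes thus differed little from those of other genes in either line. Internal peaks were above 0 in 28 of 70 cases in 143B (40.0%, median -0.37), against 25.8% and -0.91 in other genes. In HOS 9 of 70 internal peaks were above 0 (12.9%, median -0.84), against 49.1% and -0.03. In HOS the internal peaks are where splicing genes lay furthest from other genes. The 3 start peaks, in RBM14, SF3A2 and SF3B2, had shifts of -1.32, -2.23 and -2.26 in 143B, against a median of -1.20 in 192 start peaks of other genes.

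**Figure D4:**
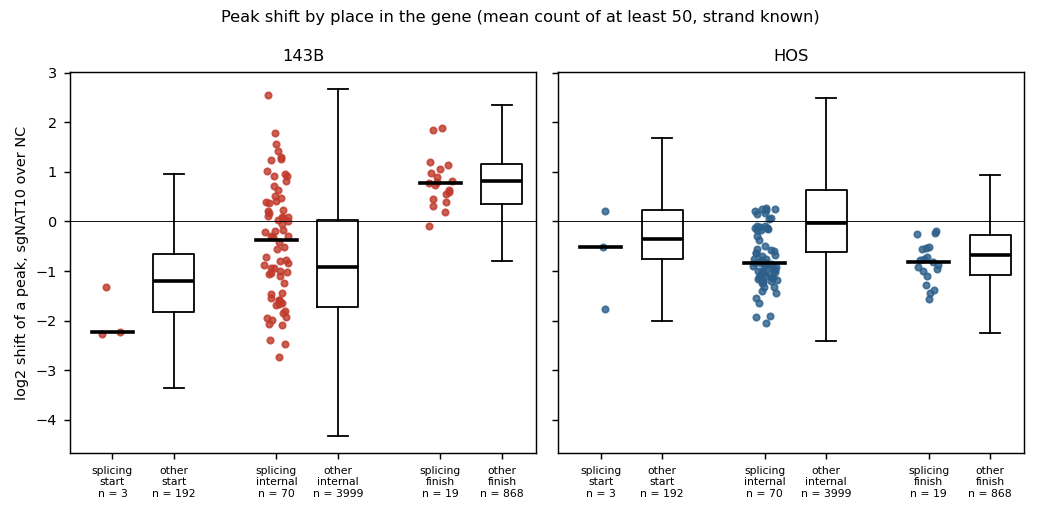
Peak shift (log2, sgNAT10 over NC) by place in the gene in 143B (left) and HOS (right), with points and a bar at the median for splicing genes and boxes for other protein-coding genes, where the box spans the quartiles, its line is the median, and whiskers reach the last peak within 1.5 box lengths. Start and finish mean within 500 bp of that end of the gene; in 143B 18 of the 19 finish points lie above 0, and in HOS 0 of the 19 do.

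Within single genes the shift changed along the transcript in 143B and little in HOS. For the 20 splicing genes with at least 2 such peaks and a known strand, the last peak minus the first had a median of 0.51 in 143B and was above 0 in 15 of them. In 947 other protein-coding genes it was 0.60, and above 0 in 69.6%. In HOS the medians were 0.04 and 0.09. The range of shifts within a gene had a median of 1.16 in 143B and 0.23 in HOS, and was larger in 143B in 20 of 20 splicing genes, against 751 of 947 other genes with medians of 1.25 and 0.52. With peaks near the ends of genes alone, the 143B shift of HNRNPL was 0.63 in place of -0.78, and that of HNRNPM was 0.32 in place of -0.14.

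SF3B2 showed the widest such range, with peaks at its start, middle and finish. The start peak (chromosome 11, 66052428 to 66052559) had 134 counts in 143B sgNAT10 and 458 in 143B NC, the middle one 165 and 209, and the finish peak (66068718 to 66068873) 445 and 168. The 143B shifts were -2.26, -0.83 and 0.90 along the gene. In HOS the same peaks had 410 counts in sgNAT10 and 459 in NC, 339 and 396, and 231 and 344, with shifts of -0.51, -0.57 and -0.92. Its gene sum of -0.66 in 143B is thus a mixture of peaks with opposite signs.

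HNRNPL had 4 peaks between -1.07 and -0.71 in 143B, while the peak 73 bp from the finish was at 0.63 (300 counts in sgNAT10, 137 in NC). In HOS all 5 lay between -1.14 and -0.81. The 3 peaks of HNRNPL nearest the finish also overlap a long noncoding RNA gene, and strand was not given for the counts. HNRNPUL1 was lower in 143B sgNAT10 at all 7 peaks, from -2.48 to -0.80, with the smallest difference at the last peak, and its HOS peaks lay between -0.76 and -0.11. SF3A2 was uniform, with 6 peaks from -2.23 to -1.66 in 143B and from 0.07 to 0.27 in HOS. HNRNPA3 had its lowest 143B shifts in the middle, -1.95 and -1.81, and HNRNPA1, whose strand was not in the table, had 3 peaks between -1.20 and -0.75 and the other at 0.40. In HNRNPM the last peak, 15 bp from the finish, was at 0.32 and the other 3 between -0.32 and -0.05. Profiles in 143B thus differed among these genes. SF3A2 was level along the gene, HNRNPL and HNRNPM were higher only at the last peak, and HNRNPA3 was lowest in its middle.

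**Figure D5:**
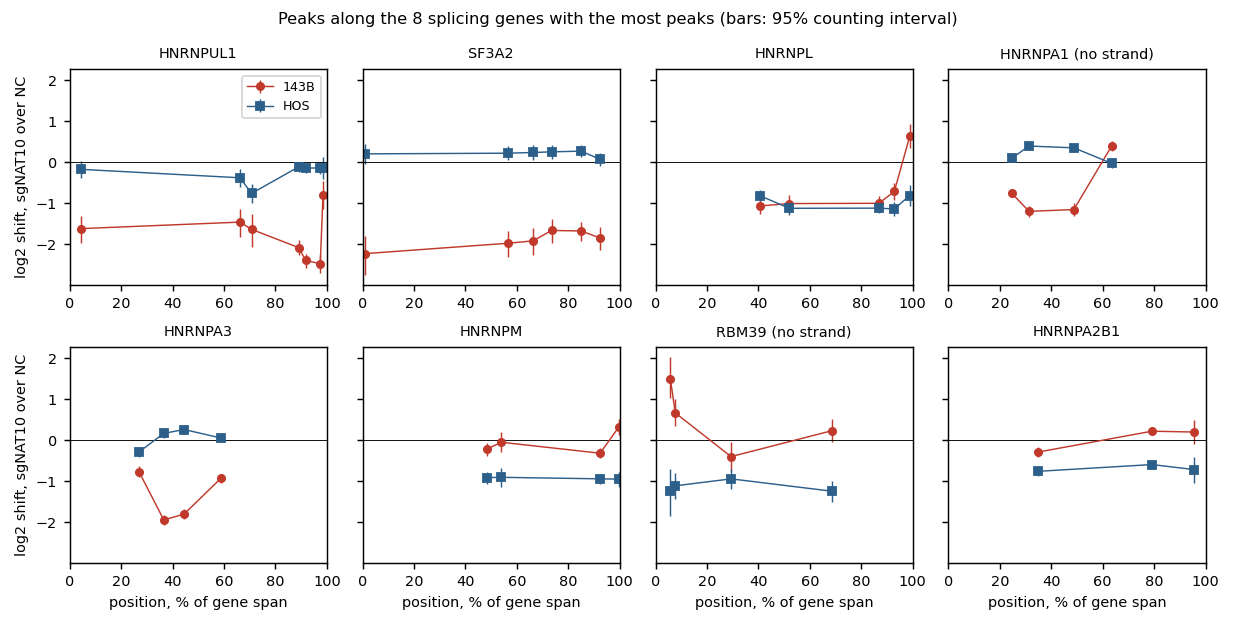
Shift of each peak (log2, sgNAT10 over NC, bars for the 95% counting interval) by its position in percent of the gene span, from start to finish, for the 8 splicing genes with the most peaks of a mean count of at least 50, with circles for 143B and squares for HOS. HNRNPA1 and RBM39 had no strand and are drawn in chromosome order; the last HNRNPL peak stands at 0.63 in 143B and the other 4 between -1.07 and -0.71, while the HOS peaks stay between -1.14 and -0.81.

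DNA before the start of 4 genes is shown because SNRPB, SNRPD2 and SRSF7 were above 0 in 143B and below 0 in HOS while SF3A2 had the opposite signs. SNRPB, a further Sm ring subunit shown here after its values were seen, had 1309 and 524 counts in 143B sgNAT10 and NC and 572 and 1091 in HOS sgNAT10 and NC. The sequences are the 250 bases before the annotated start from RefSeq (GRCh38.p14), 5' to 3' on the gene's strand, and capitals mark 3 motifs searched on both strands, the GC box (GGGCGG), the CCAAT box (CCAAT) and the ETS site (CCGGAAG). No peak of a splicing gene overlapped such a window, so these letters are not those of recovered RNA.
SNRPB (chr20:2470790-2471039, minus strand): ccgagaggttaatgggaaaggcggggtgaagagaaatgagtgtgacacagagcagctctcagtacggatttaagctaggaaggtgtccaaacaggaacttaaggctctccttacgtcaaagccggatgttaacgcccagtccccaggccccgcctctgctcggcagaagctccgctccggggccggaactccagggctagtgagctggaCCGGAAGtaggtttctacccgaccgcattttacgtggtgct
SNRPD2 (chr19:45692317-45692566, minus strand): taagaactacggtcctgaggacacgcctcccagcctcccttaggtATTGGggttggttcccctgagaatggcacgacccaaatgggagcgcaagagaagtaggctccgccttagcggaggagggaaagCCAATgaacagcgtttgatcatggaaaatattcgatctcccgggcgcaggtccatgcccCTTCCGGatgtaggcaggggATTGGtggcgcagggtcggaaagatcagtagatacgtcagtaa
SRSF7 (chr2:38751495-38751744, minus strand): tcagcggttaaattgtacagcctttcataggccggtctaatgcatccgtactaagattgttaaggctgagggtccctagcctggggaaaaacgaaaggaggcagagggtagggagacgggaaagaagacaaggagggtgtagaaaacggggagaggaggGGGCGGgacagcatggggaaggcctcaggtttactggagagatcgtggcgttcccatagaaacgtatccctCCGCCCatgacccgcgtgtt
SF3A2 (chr19:2236574-2236823, plus strand): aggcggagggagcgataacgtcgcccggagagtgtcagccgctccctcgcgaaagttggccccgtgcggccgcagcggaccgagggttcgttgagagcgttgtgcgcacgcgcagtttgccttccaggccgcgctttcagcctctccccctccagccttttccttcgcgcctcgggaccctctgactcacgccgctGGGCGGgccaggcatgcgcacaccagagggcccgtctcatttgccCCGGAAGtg

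An ETS site stood in the windows of SNRPB, SNRPD2 and SF3A2 and not in that of SRSF7. A promoter sequence was listed for 57 of the 63 genes. The ETS site was found in 19 of them (33.3%), against 11.8% of 15843 protein-coding promoters of the same length. The CCAAT box was found in 26 (45.6%, against 34.5%) and the GC box in 30 (52.6%, against 56.0%). The 57 genes all held a peak, while the 15843 promoters were not limited to genes with a peak, so the sets are unlike. A match describes the letters and is not a bound site.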

How the data were processed

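The authors deposited raw read counts per peak interval, per the labels on GRCh38, in 1 table for each cell line with the same 31395 intervals (median width 135 bp) and 1 column for each genotype. Column names give cell line and genotype but no assay. Since the tables carry RIP in their name, the columns were read as acRIP. The 7 blank columns and the input samples were not used here. The submitters' processing notes name FastQC, STAR, SAMtools and deepTools. How peaks were called and reads counted, with which strand setting and which treatment of reads with several matches, is not given in the sources used here, nor is whether interval starts count from 0, which changes the gene of 1 peak.

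Peaks were assigned to the single protein-coding gene whose RefSeq span (GRCh38.p14, 59792 genes) they overlapped, with readthrough symbols set aside (2 among the prefixes), and otherwise to the single annotated gene. This gave 19102 assigned peaks in 9097 genes, 710 peaks over several genes and 11583 outside genes. Counts were scaled with TMM factors of 1.26 for 143B sgNAT10, 0.993 for 143B NC, 1.09 for HOS sgNAT10 and 0.731 for HOS NC, computed after filterByExpr (minimum count 10, minimum total 15). Gene sums and peaks were tested with the quasi-likelihood test of edgeR 4.0.16 in R 4.3.3, with DESeq2 1.42.0 and limma 3.58.1 as alternatives. Shifts used a prior count of 1 and intervals exact conditional binomial bounds at 95%. The test was tested on simulated data. Strand was read from the RefSeq promoter table.

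Genes named are, among those with a mean gene sum of at least 100, the 4 highest and 4 lowest by shift in each line and by the mean of both, the largest of each prefix, the 8 with the most peaks, and those with the 3 smallest p. The genes, lists and rules were chosen with earlier results of these data known. The labels do not say whether libraries came from separate cultures, so p-values measure only the spread between these 4 libraries.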

Additional observations from a re-analysis of the deposited data

Results flagged for a closer look

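Shifts of opposite sign in the cell lines drew attention to families and single genes, and these differences between lines were not tested, since each line had 1 library per genotype. The 143B median minus the HOS median was 1.17 over the 62 splicing genes, 2.35 for the SR proteins, 1.71 for the snRNP proteins and 0.87 for the RBM genes. Among the named genes, the 143B shift minus the HOS shift was 3.68 for SRSF7, 2.32 for SRSF3, 2.30 for SNRPA1, 2.23 for SNRPB2, 1.73 for SNRPD2, 1.51 for SNRPA, 1.49 for RBM39 and 0.87 for RBM8A. It was negative for SF3A2, at -2.05, and for HNRNPA1, at -0.80. The HOS shift changed sign under at least 1 other scaling for SNRPA, RBM8A, SF3A2 and HNRNPA1.

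Of 7 peaks left out of the gene sums because they overlap a further gene, 3 were higher in 143B sgNAT10 than in 143B NC and 0 were higher in HOS sgNAT10 than in HOS NC. A peak shared by GATC and SRSF9 had 322 counts in 143B sgNAT10 and 93 in 143B NC (shift 1.29), and 91 in HOS sgNAT10 and 181 in HOS NC. A peak shared by FKBP3 and PRPF39 had 187 and 53 counts in 143B sgNAT10 and NC (1.32), and 69 and 101 in HOS sgNAT10 and NC. Of 2 neighbouring peaks shared by HNRNPAB and PHYKPL, one had 722 and 312 counts in 143B sgNAT10 and NC (0.71) and the other 436 and 515 (-0.74), and both were lower in HOS sgNAT10 (-1.46 and -1.71). Both peaks shared by CPNE1 and RBM12 were lower in sgNAT10 in 143B (-2.02 and -1.99) and in HOS (-0.92 and -0.74), as was the peak shared by SNRPN and SNURF (-0.26 in 143B and -0.63 in HOS).

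Pseudogenes of the splicing genes held 7 peaks, with a summed shift of -0.36 in 143B and 0.28 in HOS. Both depend on the scaling. Library totals alone add 0.34 to every 143B shift, and TMM factors from outside the rRNA block add -0.28 to every HOS shift. These bring the summed values, and those of the HNRNPA1 pseudogene below, near 0. These peaks lay in 5 pseudogenes, 1 each of HNRNPA1, HNRNPA3, HNRNPC, HNRNPK and RBM22. The HNRNPA1 pseudogene had 926 counts in HOS sgNAT10 and 613 in HOS NC (0.24), and the HNRNPA3 pseudogene 306 and 189 (0.34). In 143B the sgNAT10 and NC counts were 511 and 466 for the HNRNPA1 pseudogene (-0.37, 95% counting interval -0.55 to -0.18). For the HNRNPA3 pseudogene they were 201 and 256 (-0.85, -1.12 to -0.57). The RBM22 pseudogene had 13 and 23 counts in 143B sgNAT10 and NC (-1.32), and 22 and 16 in HOS sgNAT10 and NC (0.11). HNRNPA1 and HNRNPA3 themselves had HOS shifts of 0.18 and 0.04. The HNRNPC pseudogene had 24 and 6 counts in 143B sgNAT10 and NC (1.50) and 19 and 4 in HOS sgNAT10 and NC (1.90). HNRNPC itself had -0.22 and -1.02. An HNRNPK pseudogene had 77 counts in 143B sgNAT10 and 2 in 143B NC (4.77, 95% counting interval 2.87 to 7.84), and 5 and 2 in HOS sgNAT10 and NC, where HNRNPK had -0.69 and -1.38.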

How the results depend on the processing

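No splicing gene or splicing gene peak was called by the cross-line test under any setting tried (3 tools, 4 scalings, 3 filters, with or without the cell line block). Over all features, a mean count of at least 100 gave 1 called gene sum and 9 called peaks, and no filter gave 112 called peaks, against 0 in each fit as reported. The HOS median of -0.85 stayed below 0 and below that of all gene sums under each setting: -1.002 with DESeq2-type size factors, -0.94 with upper quartile factors, -0.27 with library totals alone (all gene sums 0.61), -1.12 with TMM outside the rRNA block, -1.12 with TMM over the line's own libraries (chosen after seeing the data), -0.80 with a prior count of 5 and -0.77 with peaks near gene ends. The 143B median of 0.33 stayed above 0: 0.24 with DESeq2-type size factors, 0.54 with upper quartile factors, 0.67 with library totals alone, 0.40 with TMM outside the rRNA block, 0.12 at a mean count of at least 100, 0.68 with peaks near ends, 0.042 with peaks away from ends, 0.23 with the highest peak only and 0.35 with peaks over exactly 1 annotated gene. It was below that of all gene sums with peaks near ends (0.70) and with peaks away from them (0.06). Genes at least 2-fold higher in 143B numbered 13 as reported, 22 with library totals alone, 6 at a mean count of at least 100, 5 with peaks near ends and 8 with peaks away from ends; genes at least 2-fold lower numbered 10, and 6 and 3 with library totals alone and with peaks near ends. In HOS those at least 2-fold lower numbered 25, and 4 with library totals alone, 38 with TMM outside the rRNA block or over the line's own libraries, and 7 with peaks near ends. Those at least 2-fold higher numbered 1, and 2 with library totals alone, with 0 under DESeq2-type size factors, TMM outside the rRNA block or over the line's own libraries, a mean count of at least 100, peaks near ends, peaks under 300 bp and the highest peak only. Shares of all gene sums past 2-fold are not given for these other scalings and peak sets, so the 2-fold counts show only how far they move. Peak settings and the count filter leave fewer genes (24 near ends, 46 away, 49 at a mean count of at least 100); the cause of the other differences was not tested. Of 290 values for named genes in each line, 9 in 143B (5 genes) and 17 in HOS (11 genes) changed sign. Scaling alone moved every shift by -0.09 to 0.34 in 143B and by -0.28 to 0.58 in HOS. The test as reported pairs the genotypes by cell line, and without the cell line block it called 0 gene sums and 0 peaks, with 297 and 499 at an unadjusted p under 0.05. With 1 library per group, a library that differs for another reason cannot be told apart from the knockout, and totals over peaks are not sequencing depths.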

Other observations

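Peaks of splicing genes had a median width of 178 bp (98 to 762), against 135 bp over all peaks. Among peaks with a mean count of at least 50 the medians were 184 bp in splicing genes and 194 bp in other protein-coding genes. Per kilobase of peak, mean levels were highest for HNRNPA1 (373 CPM per kb), SNRPB (232 CPM per kb) and SNRPD2 (191 CPM per kb), and lowest among tested genes for RBM20 (5.01 CPM per kb) and RBMS3 (5.27 CPM per kb). RBMS3, which spans 29281071 to 30010395 on chromosome 3, held 10 peaks, the most of any splicing gene, and each had few counts. Its 2 neighbouring peaks beginning at 29798053 and 29798394 were lower in 143B sgNAT10 (12 and 39 counts in sgNAT10 and NC for the first, 6 and 20 for the second), while its last peak was higher (35 and 4).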
